A study of Mus musculus with 56 samples.

Results

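The levels of 7 genes are described here: Rflnb, Myh7, Mapk3, Ngb, Tmem114, Slc22a3 and Wdfy4. They were chosen from 18088 measured genes because their levels differed between Scn2a heterozygous (HT) and wild type (WT) mice when vehicle, fluoxetine and lithium were pooled. All 7 passed the filter on low values, which asked for at least 10 normalised reads (reads divided by a size factor for each library) in at least 4 libraries. Scn2a encodes the pore-forming subunit of a neuronal voltage-gated sodium channel. RNA had been sequenced from the prefrontal cortex of 56 C57BL/6J mice on postnatal day 25, with 29 HT and 27 WT libraries. Pups of either genotype had received vehicle, fluoxetine (a serotonin reuptake blocker) or lithium (a mood stabiliser) through the milk of the dam over 3 weeks, from day 3 to day 24. The groups were HT vehicle (10 libraries), HT fluoxetine (9), HT lithium (10), WT vehicle (9), WT fluoxetine (9) and WT lithium (9), each with females and males. How the Scn2a allele was made, the doses and the dam of each pup are not given in the sources used here. Littermates may therefore sit within a group and make p-values too small, and these measure only the spread between these libraries.

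The 7 proteins belong to different families. Refilin B, from Rflnb, binds filamins, which cross-link actin. Myh7 encodes the beta myosin heavy chain, the motor of slow skeletal muscle and heart. Mapk3 encodes the kinase ERK1, at the end of the Ras, Raf and MEK cascade that carries growth factor and synaptic signals to the nucleus. Neuroglobin, from Ngb, is a neuronal relative of haemoglobin that binds oxygen. Tmem114 encodes a membrane protein of the claudin-like family, to which AMPA receptor auxiliary subunits also belong. Slc22a3 encodes the extraneuronal monoamine transporter, which takes up noradrenaline, serotonin and other organic cations. Wdfy4 encodes a BEACH domain protein that dendritic cells need to present antigens taken from other cells.

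RefSeq (GRCm38.p6) promoters were matched for 5 of the 7 genes: Rflnb, Myh7, Tmem114, Slc22a3 and Wdfy4. The 250 bases before the start site are shown for 3 of them. Rflnb is shown as the gene called in a drug comparison under each alternative, and Myh7 (lower in HT) and Slc22a3 (higher in HT) as the members that held a searched motif. Capitals mark TGACG, the core of the cyclic AMP response element.
Rflnb (chr11:76027783-76028032, minus strand): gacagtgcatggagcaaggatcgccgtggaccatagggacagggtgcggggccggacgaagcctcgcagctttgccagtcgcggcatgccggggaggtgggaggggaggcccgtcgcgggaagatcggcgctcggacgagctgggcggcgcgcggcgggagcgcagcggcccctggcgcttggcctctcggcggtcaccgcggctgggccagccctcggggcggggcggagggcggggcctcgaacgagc
Myh7 (chr14:54994627-54994876, minus strand): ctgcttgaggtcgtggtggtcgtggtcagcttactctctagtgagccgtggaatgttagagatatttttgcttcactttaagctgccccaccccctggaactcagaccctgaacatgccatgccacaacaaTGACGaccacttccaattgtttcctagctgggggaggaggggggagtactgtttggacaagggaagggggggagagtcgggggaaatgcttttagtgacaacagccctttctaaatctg
Slc22a3 (chr17:12507705-12507954, minus strand): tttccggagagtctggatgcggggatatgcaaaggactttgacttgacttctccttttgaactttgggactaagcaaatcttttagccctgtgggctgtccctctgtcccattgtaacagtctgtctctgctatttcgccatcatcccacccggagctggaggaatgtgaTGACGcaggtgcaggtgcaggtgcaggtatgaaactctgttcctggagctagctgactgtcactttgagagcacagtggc
This core began 119 bases before the start in Myh7 and 80 bases before it in Slc22a3. It was present, on either strand, in 17.8% of 32807 promoters of the same length. The full element TGACGTCA, which contains the core, was in 1.55% of promoters and in none of the 5. The AP-1 motif TGANTCA (6.75% of promoters), the EGR motif GCGTGGGCG (0.536%), the TATA motif TATAAA (12.4%) and the hypoxia response core ACGTG (16.6%), searched on both strands, were in none of the 5 either. G and C made up 76% of the Rflnb window, above the 90th percentile of all promoters (69.2%). The first listed start sites of the other 4 genes lay between 47.6% and 54.4%, around the median of 52.4%.

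In the GENCODE vM21 annotation of GRCm38 all 7 were protein-coding genes. Rflnb (ENSMUSG00000020846) spanned 76019194 to 76027782 on chromosome 11, Myh7 (ENSMUSG00000053093) 54970684 to 54994626 on chromosome 14, and Mapk3 (ENSMUSG00000063065) 126759601 to 126765819 on chromosome 7. Ngb (ENSMUSG00000021032) lay at 87097531 to 87102539 on chromosome 12 and Tmem114 (ENSMUSG00000022715) at 8409275 to 8425136 on chromosome 16. Slc22a3 (ENSMUSG00000023828) lay at 12418960 to 12507704 on chromosome 17 and Wdfy4 (ENSMUSG00000051506) at 32959547 to 33185508 on chromosome 14. Mapk3 was on the plus strand and the other 6 were on the minus strand. Per kilobase of merged exons, the mean level in WT was 1710 normalised reads for Mapk3, 178 for Rflnb, 58.1 for Myh7, 44.3 for Tmem114, 34.2 for Ngb, 18.6 for Slc22a3 and 14.0 for Wdfy4. Antisense genes overlap Myh7 (among them Mhrt), Slc22a3 (Plg) and Wdfy4 (Lrrc18). The kit marked strand but the counting setting is not given in the sources used here, so reads of these 3 genes may include their antisense partners. Myh6, a close copy of Myh7 beside it, was not found by name among the 18088 measured genes. Reads shared with it may make the level of Myh7 uncertain, which was not tested.

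Libraries held 24.3 M to 36.4 M reads. Scn2a itself ran from 7583 to 9619 normalised reads in HT and from 9727 to 13381 in WT, so all 29 HT libraries lay below every WT library. Of the excitatory neuron markers, Slc17a7 was at 45151 to 59615 and Tbr1 at 3146 to 4484 normalised reads. There was no other tissue to set these levels against, so they do not test the cortical label. Olfactory and striatal markers varied widely. In 17 libraries (11 HT and 6 WT) the score of either list, its mean log2 level relative to the median library, was above 1. These libraries numbered 4 of 10 in HT vehicle, 3 of 9 in HT fluoxetine, 4 of 10 in HT lithium, 1 of 9 in WT vehicle, 3 of 9 in WT fluoxetine and 2 of 9 in WT lithium, and results that rest on them are given with and without them.

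Over the treatments together, Rflnb, Myh7, Tmem114 and Wdfy4 were lower in HT and Mapk3, Ngb and Slc22a3 were higher. These differences chose the genes, so they are given as descriptions with no test. HT minus WT on the log2(normalised reads + 1) scale, which understates changes of low genes, was −0.44 ± 0.082 (SE) for Tmem114, −0.25 ± 0.041 for Myh7, −0.23 ± 0.037 for Rflnb and −0.19 ± 0.038 for Wdfy4. It was 0.42 ± 0.077 for Ngb, 0.34 ± 0.066 for Slc22a3 and 0.16 ± 0.027 for Mapk3. Scn2a differed by −0.53 ± 0.021 on the same scale. The sign was the same in all 6 combinations of treatment and sex for each of the 7 genes. The choice of the genes favours this, and the share of all genes with 1 sign in all 6 is not given here. In the order of p, Rflnb was the third gene and Wdfy4 the 13th, and Heg1, Grin3a, Npy, Acvrl1 and Fxyd6 stood between Scn2a and Wdfy4 without being members. Just inside the list Wdfy4 had a difference of −0.19, and just outside it Myo1e had −0.12 ± 0.024. All 7 passed an adjusted p of 0.05 (limma) here by construction, against 0.152% of the 17778 genes tested. Within a single treatment the share of all genes that passed was 0.00562% under vehicle, 0.0112% under fluoxetine and 0.0337% under lithium. Those contrasts rest on the same libraries and values as the choice of the genes, so no call of a member is read from them.

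**Figure D1:**
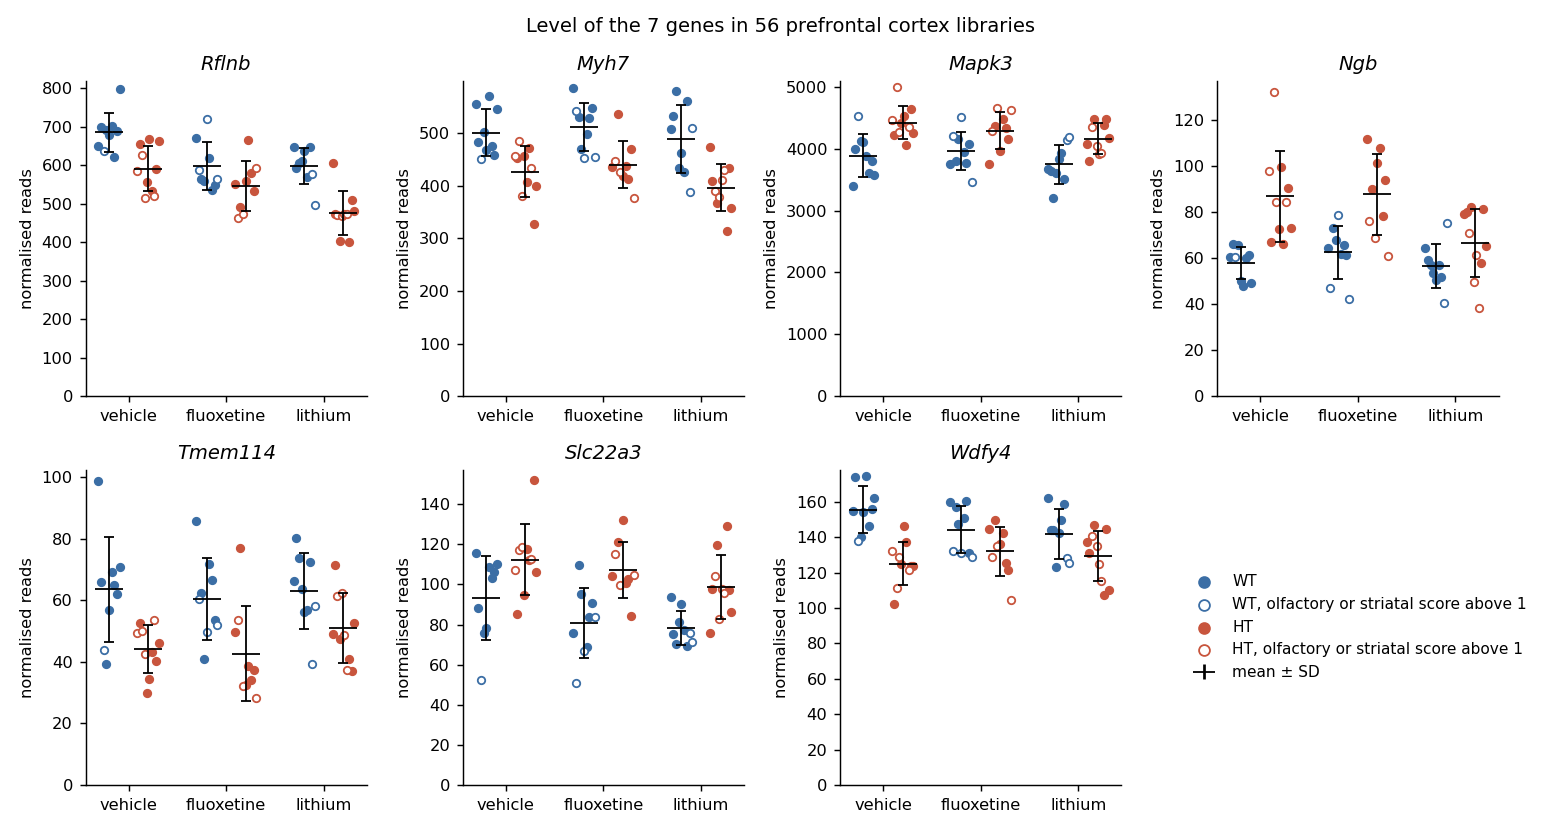
Each point is the level of a gene in 1 library, in normalised reads, by treatment and genotype; bars are means ± SD and open points are libraries with an olfactory or striatal score above 1. On average HT points sit lower for Rflnb, Myh7, Tmem114 and Wdfy4 and higher for Mapk3, Ngb and Slc22a3.

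By treatment, the size of the genotype difference varied from gene to gene. That of Myh7 was −0.24 under vehicle, −0.22 under fluoxetine and −0.31 under lithium on the log2 scale, and that of Rflnb was −0.22, −0.14 and −0.34 in the same order. That of Tmem114 was −0.50, −0.50 and −0.33, and that of Wdfy4 was −0.32, −0.13 and −0.14. Among the genes higher in HT, Mapk3 differed by 0.19, 0.11 and 0.16, Slc22a3 by 0.27, 0.43 and 0.32, and Ngb by 0.56, 0.48 and 0.21. The 95% interval crossed 0 for Ngb under lithium (−0.06 to 0.47) and for Wdfy4 under fluoxetine (−0.26 to 0.01). Without the 17 libraries of high olfactory or striatal score Slc22a3 differed by 0.099 under vehicle, Rflnb by −0.078 under fluoxetine and Ngb by 0.40 under lithium. With endothelial and layer scores as covariates, a fit added after the data had been seen, Ngb differed by 0.36, Tmem114 by −0.18 and Wdfy4 by −0.042 under lithium. The other differences within a treatment moved by less than 1.5 times under the alternatives and with any 1 library left out.

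**Figure D2:**
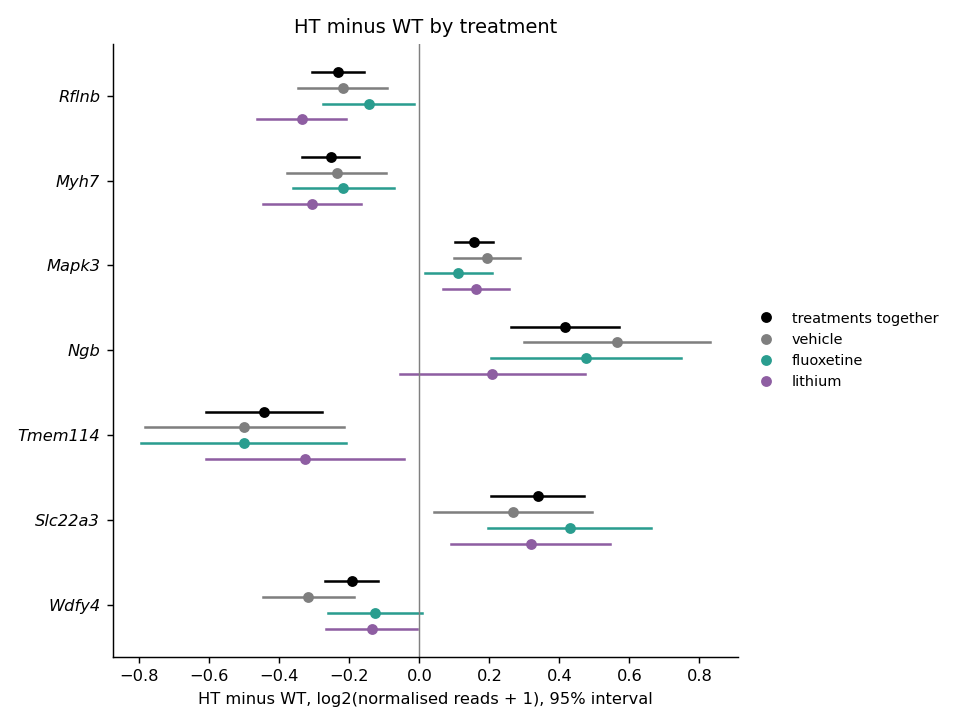
Points are HT minus WT on the log2(normalised reads + 1) scale under vehicle, fluoxetine and lithium, and bars are 95% intervals. Each gene keeps its sign under the 3 treatments, and the intervals of a gene overlap across treatments.

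Whether the genotype difference itself depended on a drug was tested with interaction terms, which the choice of the genes did not use. None of the 7 was called for fluoxetine (background 0% of all genes, with 967 genes at an unadjusted p under 0.05) or for lithium (background 0%, with 1934 such genes). Over all genes edgeR called 0 in both, and DESeq2 called 0 for fluoxetine and 11 for lithium, none of them a member. At an unadjusted p under 0.05 stood 1 member for fluoxetine and 0 for lithium. The largest values were those of Wdfy4 for fluoxetine (0.19 ± 0.093, adjusted p = 0.91, limma) and of Ngb for lithium (−0.36 ± 0.19, 95% interval −0.73 to 0.018, adjusted p = 0.47). Without the 17 libraries of high olfactory or striatal score the Ngb term was 0.0061.

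Rflnb had the lowest level in HT mice on lithium. Under vehicle it ran from 621 to 798 normalised reads in WT (median 689) and from 515 to 667 in HT (median 587). Under fluoxetine it ran from 536 to 720.4 in WT (median 565) and from 463 to 666 in HT (median 551). Under lithium it ran from 496 to 647 in WT (median 605) and from 401 to 606 in HT (median 473). The genotypes overlapped under every treatment, and all 10 HT vehicle libraries lay below the WT vehicle median. The highest mean was that of WT vehicle (685 ± 51.2, SD, n = 9) and the lowest that of HT lithium (476 ± 56.8, n = 10). WT vehicle stood above its next neighbour, WT lithium, by more than the larger SD, and so did HT fluoxetine above HT lithium. WT lithium, WT fluoxetine and HT vehicle lay between 591 and 598, closer to each other than their SDs.

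Rflnb fell under lithium in HT mice, where 9 of 10 lithium libraries lay below the whole vehicle range. Lithium minus vehicle was −0.31 ± 0.061 on the log2 scale (95% interval −0.44 to −0.19; adjusted p = 0.001, limma), which is 19.5% lower. Rflnb and Ngb were the 2 members called in this comparison, against 8.77% of all genes. In WT mice the Rflnb difference was −0.20 ± 0.065 (interval −0.33 to −0.066; adjusted p = 0.06, limma), with 9 of 9 lithium libraries below the vehicle median. DESeq2 called it (adjusted p = 0.037) and edgeR did not (adjusted p = 0.053). By limma none of the 7 was called for lithium in WT, against 5.71% of all genes, and 3 stood at an unadjusted p under 0.05, as did 3810 of the 17778 genes tested. Of the 1016 genes called there 67.1% were higher, a share of 55.9% after rescaling with TMM factors. The Rflnb responses of the 2 genotypes were not shown to differ: the interaction was −0.12 (interval −0.30 to 0.062; adjusted p = 0.63, limma).

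Fluoxetine minus vehicle was −0.21 ± 0.065 for Rflnb in WT (adjusted p = 0.17, limma) and −0.13 ± 0.063 in HT (adjusted p = 0.57). In WT 8 of 9 fluoxetine libraries lay below the vehicle median, and in HT 7 of 9 did. No member was called for fluoxetine in WT (background 0.146%) or in HT (background 0.045%), and edgeR and DESeq2 called none either. At an unadjusted p under 0.05 stood 1 member, Rflnb, in each genotype, beside 1929 of all 17778 genes in WT and 1521 in HT. Fluoxetine and lithium were set against the same vehicle libraries.

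**Figure D3:**
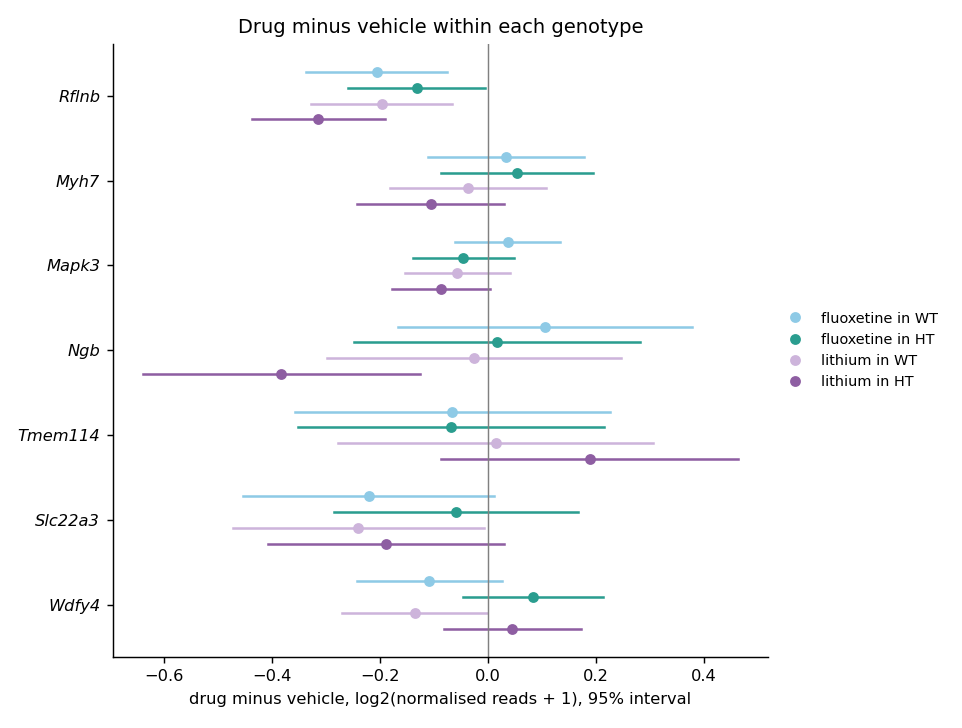
Points are drug minus vehicle on the log2(normalised reads + 1) scale for each drug and genotype, and bars are 95% intervals. All 4 intervals of Rflnb lie below 0, and among the other genes the interval of Ngb for lithium in HT lies farthest from 0.

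Endothelial and blood markers, among others, moved with the Rflnb values. Within groups, the deviation of Rflnb from its group mean followed the endothelial score of the library (Pearson r = 0.66, Spearman rho = 0.64 over 56 libraries). Each permutation p was 1e-05, the smallest that the permutations can give, and the adjusted p was 0.00028 for r and 0.00056 for rho over 112 relations of a gene with a marker list. Without the 2 libraries of most extreme score r was 0.68. It was 0.62 in the 39 libraries of low olfactory and striatal score and 0.76 in the other 17. Rflnb also followed the blood score (r = 0.56, rho = 0.56, permutation p = 1e-05 and 5e-05, adjusted 0.00028 and 0.0013), with r = 0.49 without the 2 most extreme libraries, 0.47 in the 39 libraries and 0.80 in the other 17. The 5 blood markers were all higher in HT with none called (median 0.28). Their sums ran from 3990.2 to 20790.2 normalised reads in HT and from 4057 to 16406 in WT. The part of blood RNA in the Rflnb values was not tested. Relations with the microglia (r = 0.43), meninges (0.41), astrocyte (0.37), upper-layer (0.34) and muscle (0.32) scores also had an adjusted p under 0.05 for r. The gene most like Rflnb was Cldn5, the claudin of brain endothelium (r = 0.74), followed by Pecam1, an endothelial adhesion molecule (r = 0.69), and Rras2, a Ras relative (r = 0.67). Least like it was Zbtb16, a zinc finger protein (r = −0.70). Such likenesses, here and for the genes that follow, are the extremes over all genes of correlations between deviations from group means in 56 libraries, and they carry no test.

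**Figure D4:**
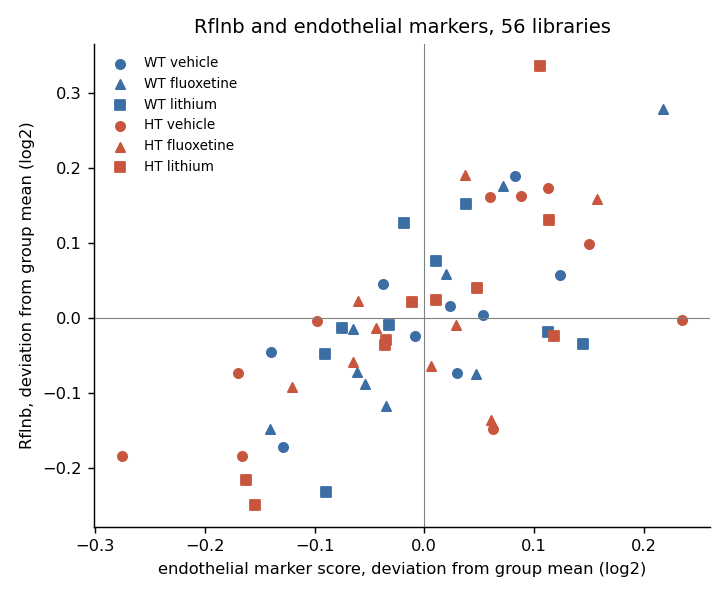
Each point is 1 of 56 libraries; the x axis is its endothelial score and the y axis its Rflnb level, both as log2 deviations from the mean of its genotype, treatment and sex group. Libraries of both genotypes and all treatments fall along 1 rising band (r = 0.66).

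In HT mice lithium changed 3 of the 7 endothelial markers, against 8.77% of all genes. Cldn5 fell by 0.49 ± 0.11 on the log2 scale (adjusted p = 0.0025, limma) and Pecam1 fell by 0.20 ± 0.065 (adjusted p = 0.046). Flt1, a VEGF receptor, rose by 0.19 ± 0.049 (adjusted p = 0.011). Cldn5 was also called lower for lithium in WT, as given below with the relatives of Tmem114. The summed level of the 7 markers ran from 6089 to 7430.2 normalised reads in HT lithium and from 5912 to 8574 in HT vehicle, and no marker was at 0. Between genotypes all 7 markers were lower in HT over the treatments together (median −0.086 against 0.00012 over all genes) and none of these 7 was called. Their sums ran from 5912 to 8574 in HT and from 6406 to 8536 in WT. Endothelial genes outside this list were not examined as a set, but single ones were called lower in HT. Among them were Heg1 (−0.17 ± 0.023, adjusted p = 2.4e-05, limma) and Acvrl1 (−0.16 ± 0.029, adjusted p = 0.0022, limma). Of all genes, the genotype contrast over treatments called 9 as higher and 18 as lower. With endothelial, upper-layer and deep-layer scores as covariates the lithium difference of Rflnb in HT was −0.20 ± 0.054 (adjusted p = 0.03, limma). In the same fit its HT minus WT difference over treatments was −0.16 ± 0.031. Fewer cells of a type and less RNA per cell cannot be told apart in bulk tissue.

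Of the 4 other refilins and filamins none was called between genotypes over treatments together (median −0.0073). Rflna, the paralog, ran from 10.9 to 40.4 normalised reads in HT and from 11.6 to 40.8 in WT, a log2 difference of −0.04. For lithium in HT 1 of these 4 genes was called, as higher, against 8.77% of all genes. There 3 of the 4 were higher and 1 was lower (median 0.075).

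Myh7 was lower in HT under each treatment, with overlapping ranges. It ran from 450.2 to 569 normalised reads in WT vehicle (median 482) and from 327 to 485 in HT vehicle (median 443). Under fluoxetine the range was 453 to 585 in WT (median 528) and 377 to 537 in HT (median 436). Under lithium it was 388 to 580.0 in WT (median 507) and 314 to 473 in HT (median 399.6). Of 29 HT libraries 28 lay below the median of all WT libraries. The 3 WT means (489 to 512) stood above the 3 HT means (396 to 440.0), and no neighbouring means in that order differed by more than the larger SD. Lithium minus vehicle was −0.11 ± 0.068 in HT and −0.036 ± 0.072 in WT, and fluoxetine minus vehicle was 0.054 ± 0.070 in HT and 0.034 ± 0.072 in WT, none of them called.

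Of 12 other myosin heavy chains none was called between genotypes (median −0.021). Myh7b, a paralog of Myh7, ran from 112 to 193 normalised reads in HT and from 119 to 203 in WT, a log2 difference of −0.062 ± 0.054. Of 6 striated muscle markers tested 5 were lower in HT and none was called (median −0.097). The sum of the muscle markers ran from 716 to 1535 normalised reads in HT and from 857 to 1566 in WT, with none at 0 throughout. Within groups Myh7 was related to several marker scores, with r = −0.41 for claustrum, 0.41 for microglia, −0.39 for olfactory bulb, 0.36 for upper layers, −0.34 for deep layers and 0.31 for endothelium (adjusted permutation p between 0.0096 and 0.047). It followed the muscle score with r = 0.34 and rho = 0.35 (permutation p = 0.0092 and 0.009, adjusted 0.03 and 0.036). Without the 2 most extreme libraries r was 0.31, and it was 0.35 in the 39 libraries and 0.41 in the other 17. The part of muscle RNA or of these other markers in the genotype difference was not tested. The genes most like Myh7 were Coq9 of ubiquinone synthesis (r = 0.64), the lysosomal protease Ctsd (r = 0.63) and the growth factor binding protein Igfbp6 (r = 0.63), and the least like was Virma, of the RNA methylation complex (r = −0.70).

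Mapk3 was the most abundant member and had the smallest spread within groups (7.19%, of which counting alone gives 1.62%). It ran from 3389 to 4534 normalised reads in WT vehicle (median 3873) and from 4059 to 5001 in HT vehicle (median 4384). Under fluoxetine it ran from 3469 to 4509 in WT (median 3944) and from 3746 to 4655 in HT (median 4333). Under lithium it ran from 3196 to 4186 in WT (median 3667) and from 3799 to 4485 in HT (median 4120.2). All 10 HT libraries lay above the WT median under vehicle and under lithium, and 8 of 9 did under fluoxetine, with overlapping ranges. Every HT mean (4160.1 to 4418) was above every WT mean (3744 to 3966), although neighbours in the order differed by less than the larger SD. Lithium minus vehicle was −0.087 ± 0.045 in HT and −0.056 ± 0.048 in WT, and fluoxetine minus vehicle was −0.045 ± 0.047 in HT and 0.037 ± 0.048 in WT, none of them called.

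None of the 33 other genes of the ERK cascade was called between genotypes, with 13 higher and 20 lower (median −0.0082). Of 26 neighbours of Mapk3 in the mouse interval that matches a recurrent human deletion none was called either, with 18 higher and 8 lower (median 0.0098). Under lithium the scaffold gene Ksr1 rose in HT by 0.30 ± 0.062 (adjusted p = 0.0019, limma) and in WT by 0.24 ± 0.066 (adjusted p = 0.022). Sos1, which encodes a Ras activator, rose by 0.16 ± 0.038 in HT (adjusted p = 0.006) and by 0.14 ± 0.040 in WT (adjusted p = 0.033), and Spry4, a feedback inhibitor, rose in WT by 0.39 ± 0.12 (adjusted p = 0.041). In the interval lithium changed 5 of the 26 ids in HT, against 8.77% of all genes, with Sult1a1 higher and Ppp4c, Asphd1, Bola2 and Tmem219 lower. It changed 3 of 26 in WT, against 5.71% of all genes, with Cdipt and Sez6l2 higher and Tmem219 lower.

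Within groups Mapk3 followed the claustrum score (r = 0.63, permutation p = 1e-05, the smallest possible; rho = 0.53, p = 5e-05; adjusted 0.00028 and 0.0013). Without the 2 most extreme libraries r was 0.54, and it was 0.55 in the 39 libraries and 0.68 in the other 17. Of 5 claustrum markers 4 were higher in HT and none was called (median 0.021), with sums of 10272 to 13338 normalised reads in HT and 10039 to 12484 in WT and none at 0 throughout. Mapk3 also followed the deep-layer score (r = 0.56, rho = 0.46, permutation p = 3e-05 and 0.00039, adjusted 0.00056 and 0.0048), with r = 0.46 without the 2 most extreme libraries, 0.49 in the 39 libraries and 0.59 in the other 17. All 11 deep-layer markers were higher in HT and none was called (median 0.064), with sums of 10448 to 13519 normalised reads in HT and 9553 to 13364 in WT and none at 0 throughout. Further relations were with the oligodendrocyte (r = 0.55), excitatory neuron (−0.49), upper-layer (−0.48), thalamus (0.45), striatum (0.44), choroid plexus (0.42) and olfactory (0.33) scores, each with an adjusted p under 0.05 for r. The part of these markers in the genotype difference was not tested. With endothelial and layer scores as covariates the difference over treatments was 0.13 ± 0.025, against 0.16 without them. The genes most like Mapk3 were Wscd1 (r = 0.79), Tbc1d16 (r = 0.79) and Samd14 (r = 0.78).

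Ngb was higher on average in HT under each treatment. Under vehicle it ran from 47.6 to 65.8 normalised reads in WT (median 60.3) and from 66.1 to 132 in HT (median 84.1). The narrow gap between these ranges comes from values that chose the gene, and the share of all genes with such a gap was not counted. Without the libraries of high olfactory or striatal score the vehicle medians were 60.2 in WT (n = 8) and 72.8 in HT (n = 6). Under fluoxetine it ran from 42.4 to 78.4 in WT (median 64.5) and from 60.7 to 112 in HT (median 89.97). Under lithium it ran from 40.4 to 75.1 in WT (median 56.9) and from 38.5 to 82.0 in HT (median 68.0), and the HT range covered the whole WT range. HT vehicle (86.6 ± 19.9, SD, n = 10) stood above HT lithium (66.5 ± 14.9, n = 10) by more than the larger SD, and the 3 WT means lay between 56.4 and 62.4, within their SDs. Each value rested on 34 to 109 reads, and counting alone gives a spread of 12.4% against 21.2% observed within groups.

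Under lithium Ngb fell in HT by 0.38 ± 0.13 on the log2 scale (95% interval −0.64 to −0.13; adjusted p = 0.049, limma), with 10 of 10 lithium libraries below the vehicle median and 5 below the whole vehicle range. The call did not hold without the 17 libraries of high olfactory or striatal score, where the difference was −0.03 ± 0.11 (adjusted p = 0.92). In the libraries left, Ngb ran from 66.1 to 99.4 normalised reads in HT vehicle (median 72.8, n = 6) and from 58.0 to 82.0 in HT lithium (median 79.5, n = 6). The call was also lost when single libraries were left out, in 40 of 56 fits, with an adjusted p of 0.13 without HT lithium female 5 or HT vehicle female 3. With endothelial and layer scores as covariates the difference was −0.23 ± 0.14 (adjusted p = 0.42). In WT lithium minus vehicle was −0.026 ± 0.14, and fluoxetine minus vehicle was 0.11 ± 0.14 in WT and 0.017 ± 0.13 in HT, none of them called.

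Within groups Ngb ran against the olfactory score (r = −0.36, rho = −0.36, permutation p = 0.0075 and 0.0071, adjusted 0.028 and 0.033). Without the 2 most extreme libraries r was −0.39, and it was −0.28 in the 39 libraries and −0.23 in the other 17. All 11 olfactory markers were higher in HT and none was called (median 0.12), with sums of 3316 to 19999.7 normalised reads in HT and 4181 to 20604 in WT and none at 0 throughout. Ngb also followed the blood, endothelial and upper-layer scores (r = 0.32 each, adjusted permutation p = 0.04 each, which is too small as stated for Rflnb). For rho the adjusted permutation p was 0.12, 0.036 and 0.083 in that order. The part of these and of the olfactory markers in the genotype difference was not tested. The other 5 globins were all higher in HT and none was called (median 0.27). Cygb, which encodes cytoglobin, ran from 976 to 1342 normalised reads in HT and from 928 to 1292 in WT, a log2 difference of 0.093 ± 0.030. Blood markers, which include the haemoglobin genes of that list, were higher in HT in 5 of 5 cases with none called (median 0.28). The genes most like Ngb were Anapc16 (r = 0.58), Gstm5 (r = 0.55) and R3hdm4 (r = 0.54), and the first of these stood at r = 0.34 in the 39 libraries. Least like it was Hs6st2, of heparan sulfate synthesis (r = −0.57).

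Slc22a3 was higher in HT under each treatment. It ran from 52.5 to 116 normalised reads in WT vehicle (median 103) and from 85.1 to 152 in HT vehicle (median 112). Under fluoxetine it ran from 51.0 to 109.8 in WT (median 83.9) and from 84.2 to 132 in HT (median 104). Under lithium it ran from 69.5 to 93.9 in WT (median 76.0) and from 76.0 to 129 in HT (median 97.5). The ranges overlapped throughout, and all HT libraries lay above the WT median under fluoxetine (9 of 9) and lithium (10 of 10), against 8 of 10 under vehicle. The 3 HT means (98.6 to 112) stood above the 3 WT means (78.3 to 93.2), with no neighbours farther apart than the larger SD. Without the 17 libraries of high score its difference over treatments was 0.25, against 0.34 with them.

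Lithium minus vehicle of Slc22a3 was −0.24 ± 0.12 in WT (interval −0.47 to −0.0071; adjusted p = 0.22, limma), with 9 of 9 lithium libraries below the vehicle median, and −0.19 ± 0.11 in HT (adjusted p = 0.30). Fluoxetine minus vehicle was −0.22 ± 0.12 in WT (adjusted p = 0.49) and −0.058 ± 0.11 in HT (adjusted p = 0.93). Of 11 other organic cation transporters and monoamine clearance genes none was called between genotypes, with 9 higher and 2 lower (median 0.079). Slc22a2, the closest paralog, ran from 9.87 to 41.6 normalised reads in HT and from 9.94 to 48.6 in WT, a log2 difference of 0.19 ± 0.11. Maob, which encodes a monoamine oxidase, rose under lithium in WT by 0.17 ± 0.053 (adjusted p = 0.044, limma). Within groups Slc22a3 ran against the deep-layer (r = −0.37), thalamus (−0.36), interneuron (−0.35), claustrum (−0.34), oligodendrocyte (−0.33) and olfactory (−0.33) scores. The adjusted permutation p was between 0.024 and 0.037 for r and above 0.05 for each rho. The part of these markers in its genotype difference was not tested. The genes most like Slc22a3 were the potassium channel gene Kcnq3 (r = 0.60), Lrrc6 (r = 0.59) and Otulinl (r = 0.57), and the least like was Jup, which encodes plakoglobin (r = −0.59).

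Tmem114 had the largest genotype difference of the 7 on the log2 scale and the widest spread within groups (22.8%, against 14.1% from counting alone). It ran from 39.5 to 98.9 normalised reads in WT vehicle (median 64.9) and from 30.01 to 53.6 in HT vehicle (median 44.5). Under fluoxetine it ran from 41.1 to 85.7 in WT (median 60.3) and from 28.3 to 77.1 in HT (median 37.3). Under lithium it ran from 39.2 to 80.3 in WT (median 63.8) and from 37.0 to 71.6 in HT (median 48.9). All 10 HT vehicle libraries lay below the WT vehicle median, and the ranges overlapped under each treatment. The 3 WT means (60.4 to 63.5) stood above the 3 HT means (42.6 to 50.9), with no neighbours farther apart than the larger SD. Lithium minus vehicle was 0.19 ± 0.14 in HT and 0.015 ± 0.15 in WT, and fluoxetine minus vehicle was −0.068 ± 0.14 in HT and −0.066 ± 0.15 in WT, none of them called. The sign of the last 3 changed under other settings.

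Sex was tested as a comparison that the choice of genes did not use. No member was called between females and males (background 0.197%) or for a genotype by sex interaction (background 0%, with 965 genes at an unadjusted p under 0.05), and edgeR and DESeq2 called no member in either. At an unadjusted p under 0.05 stood 1 member for sex, beside 1112 of all 17778 genes, and 0 for the interaction. That member was Tmem114, with a female minus male difference of 0.20 ± 0.082 (adjusted p = 0.72, limma) and an interaction of 0.28 ± 0.16 (adjusted p = 0.92). Its mean in HT fluoxetine was 53.2 normalised reads in females and 34.1 in males, and in WT fluoxetine 62.3 and 58.8. The other 6 genes lay between −0.09 and 0.11 for sex and between −0.08 and 0.06 for the interaction.

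Of 11 relatives of Tmem114 none was called between genotypes (3 higher and 8 lower, median −0.022). Cacng2, which encodes the AMPA receptor subunit stargazin, differed by −0.065 ± 0.030. Under lithium Cldn5 fell in both genotypes (by 0.38 ± 0.11 in WT, adjusted p = 0.034, limma), and Cldn12 rose in WT by 0.087 ± 0.025 (adjusted p = 0.029). Within groups Tmem114 ran with Myh7 (r = 0.45, rho = 0.45, adjusted p = 0.005 and 0.0082 over 21 pairs of members, permutation test) and against Mapk3 (r = −0.47, rho = −0.44, adjusted p = 0.005 and 0.0082). Without the 2 most extreme libraries these were 0.47 and −0.37. In the 39 libraries they were 0.37 and −0.51, and in the other 17 they were 0.61 and −0.33. Tmem114 was also related to the claustrum score (r = −0.47, rho = −0.36, adjusted permutation p = 0.004 and 0.033) and the upper-layer score (r = 0.45, rho = 0.40, adjusted 0.005 and 0.015), and the part of these markers was not tested. The genes most like Tmem114 were Fstl4 (r = 0.58), Megf11 (r = 0.57) and Catsperz (r = 0.57), and the least like was Egfem1 (r = −0.57).

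Wdfy4 was lower in HT, with the largest difference under vehicle. It ran from 138 to 175 normalised reads in WT vehicle (median 155) and from 102 to 146 in HT vehicle (median 124). Under fluoxetine it ran from 129 to 160.3 in WT (median 148) and from 105 to 150.0 in HT (median 135). Under lithium it ran from 123 to 162 in WT (median 144) and from 108 to 147 in HT (median 133). Under vehicle 9 of 10 HT libraries lay below the whole WT range, against 4 of 9 under fluoxetine and 3 of 10 under lithium. The 3 WT means (142 to 156) stood above the 3 HT means (125 to 132), with no neighbours farther apart than the larger SD. Lithium minus vehicle was −0.14 ± 0.067 in WT (adjusted p = 0.23, limma) and 0.045 ± 0.063 in HT (adjusted p = 0.72), and fluoxetine minus vehicle was −0.11 ± 0.067 in WT (adjusted p = 0.58) and 0.084 ± 0.065 in HT (adjusted p = 0.75).

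Of the 7 other BEACH domain genes none was called between genotypes (median −0.019). Wdfy3, the closest paralog, ran from 6603 to 8432 normalised reads in HT and from 6725 to 8356 in WT, a log2 difference of −0.045 ± 0.018. Under lithium in HT Lyst, the lysosomal trafficking regulator, rose by 0.27 ± 0.059 (adjusted p = 0.0025, limma) and Wdfy3 rose by 0.10 ± 0.031 (adjusted p = 0.032). Within groups Wdfy4 followed the upper-layer score (r = 0.62, rho = 0.67, each permutation p 1e-05, the smallest possible; adjusted 0.00028 and 0.00056). Without the 2 most extreme libraries r was 0.66, and it was 0.57 in the 39 libraries and 0.47 in the other 17. It also followed the microglia score (r = 0.51, rho = 0.51, permutation p = 0.00011 and 7e-05, adjusted 0.0018 and 0.0013), with 0.48 without the 2 most extreme libraries, 0.48 in the 39 libraries and 0.39 in the other 17. Among its other relations were those with the deep-layer (r = −0.49), striatum (−0.44) and claustrum (−0.41) scores (adjusted permutation p for r of 0.0022, 0.0049 and 0.01).

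Of 8 upper-layer markers 6 were lower in HT and none was called (median −0.062), with sums of 19659 to 24893 normalised reads in HT and 19784 to 25642 in WT and none at 0 throughout. Of 8 microglia markers 6 were higher in HT and none was called (median 0.011), with sums of 8695 to 11526 in HT and 7753 to 10874 in WT and none at 0 throughout. With endothelial and layer scores as covariates the HT minus WT difference of Wdfy4 over treatments was −0.15 ± 0.035, against −0.19 without them. The genes most like Wdfy4 were B4galt2 (r = 0.62), Nr2f1, an orphan nuclear receptor gene (r = 0.61), and Golga7b (r = 0.61), and the least like was the synaptic vesicle gene Sv2c (r = −0.63).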

How the data were processed

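The authors deposited 1 table of 18088 genes in 56 libraries whose values are a signal, reads divided by a size factor per library. Salmon 0.11.2, R 3.6.0, DESeq2 1.19.11 and GRCm38 are named per the submitters' processing notes, with no roles given. Of the values 100% came out as whole reads within 0.01 reads, with size factors from 0.818 to 1.227. In 3 libraries the step was too near 1 to tell it from 1.

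Values were tested as log2(value + 1) with limma 3.58.1 in R 4.3.3 (trend and robust), with 12 group means of genotype, treatment and sex over all 56 libraries. Genes needed a value of at least 10 in at least 4 libraries, which left out 310 and kept 17778. Benjamini-Hochberg adjusted p under 0.05 counted as called. On the recovered reads, edgeR 4.0.16 called 31 genes and DESeq2 1.42.0 called 50 for genotype over treatments together, against 27 by limma. Scripts were tested on simulated data.

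The members and gene lists were chosen with earlier results of these data known. The text names the 7 members, Scn2a, list genes that were called or are closest in role to a member, the 3 genes most and 1 least correlated with each member (mean of at least 50), and genes next to the members in p. A fit with endothelial and layer scores was added after seeing the data. Some list and correlated genes under this rule are not reported here.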

Additional observations from a re-analysis of the deposited data

Results flagged for a closer look

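In 84 sets of a member's values within a group of genotype, treatment and sex, 3 sets had 1 library far from the rest of its group, where chance alone gives about 1 in 20. Mapk3 in WT lithium female 3 was at 3196 normalised reads, below the other libraries of its group at 3613 to 3667 (n = 4 in all). Slc22a3 in HT lithium male 3 was at 129 normalised reads, above the others at 86.4 to 97.8 (n = 5 in all). Slc22a3 in HT vehicle male 4 was at 152 normalised reads, above the others at 106 to 118 (n = 5 in all).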

How the results depend on the processing

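The difference between genotypes over treatments chose the genes, so its sign is only described and lends them no support. It kept this sign for all 7 members under 10 alternatives and in 56 fits that left out 1 library each. The lithium call of Rflnb in HT held in all of them, with adjusted p between 0.00017 and 0.03. That of Ngb did not: the number of members called for lithium in HT went from 2 to 1 without the filter (Ngb adjusted p = 0.05021), with endothelial and layer scores, and without the libraries of high olfactory or striatal score, and was 1 to 2 with 1 library left out. For lithium in WT the number went from 0 to 1, Rflnb, with the replicate block (adjusted p = 0.044) and with DESeq2, and was 0 to 1 with 1 library left out; it was called without HT lithium female 1, HT lithium female 4, WT fluoxetine male 1, WT lithium male 3 or WT vehicle male 2 (the lowest adjusted p, 0.035).

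Genes called over all genes depended more on the setting. For genotype over treatments the 27 became 63 with tissue scores and 50 with DESeq2, and 17 (without WT fluoxetine female 3) to 42 (without HT fluoxetine female 1) with 1 library left out. Under vehicle the 1 became 10 with tissue scores, 21 without the libraries of high score and 34 with DESeq2, and 1 to 35 with 1 left out (35 without HT vehicle female 1). Under fluoxetine the 2 became 1 without the libraries of high score, and 1 to 2 with 1 left out. Under lithium the 6 became 3 with tissue scores, 1 with endothelial and layer scores, 11 without the libraries of high score and 13 with DESeq2, and 2 to 10 with 1 left out. The lithium interaction went from 0 to 11 with DESeq2 and was 0 to 1 with 1 left out (1 without HT lithium female 4). Fluoxetine in WT went from 26 to 49 with the replicate block, 68 with tissue scores, 2 with endothelial and layer scores, 0 without the libraries of high score and 123 with DESeq2, and was 0 to 71 with 1 left out. Fluoxetine in HT went from 8 to 3 without the libraries of high score and 16 with DESeq2, and was 4 to 13 with 1 left out. Lithium in WT went from 1016 to 502 without the libraries of high score, and was 571 to 1226 with 1 left out. Lithium in HT went from 1560 to 582 with endothelial and layer scores and 586 without the libraries of high score, and was 985 to 1815 with 1 left out. Fewer libraries enter the fit without those of high score; for the other settings the cause was not tested.

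The lithium interaction of Ngb, −0.36 over all libraries, was 0.0061 without the libraries of high score, and its fluoxetine interaction went from −0.089 to 0.17. Some smaller values changed sign too. Without the libraries of high score fluoxetine minus vehicle in HT was 0.22 for Tmem114 and 0.051 for Slc22a3. For Ngb that difference was −0.0083 with the replicate block and −0.019 with tissue scores. Lithium minus vehicle in WT was 0.017 for Myh7 and 0.054 for Ngb with endothelial and layer scores, and for Tmem114 −0.023 with tissue scores, −0.015 with edgeR and −0.012 with DESeq2. With 1 library left out, Tmem114 ran from −0.15 to 0.030 for fluoxetine in WT, −0.17 to 0.040 for fluoxetine in HT and −0.052 to 0.11 for lithium in WT. Ngb ran from −0.047 to 0.090 for fluoxetine in HT and −0.085 to 0.024 for lithium in WT, and Myh7 from −0.070 to 0.0025 for lithium in WT.

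Same-numbered libraries did not deviate together (median r = −0.0016 over 292 pairs, and 11 of 56 libraries correlated best with their own number), so the replicate block pairs a shared number only. The numbers were those of the sample titles. In WT fluoxetine female and WT lithium female some library names carry other numbers, and pairing by these was not tested. Depth limits Ngb and Tmem114 most, with 34 to 109 and 27 to 95 reads per library.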
